A study of Mus musculus with 2 samples.

Results

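The genes described here are 7 genes of airway mucus and epithelial ion transport, Clca1, Slc26a4, Fxyd4, Muc5b, Muc5ac, Agr2 and Spdef. They were found by symbol among the 27998 genes of both count tables, and each symbol matched 1 row. They had been picked because earlier results of these data showed differences between the libraries, so their levels are given as a description, with no test. The study measured single-cell RNA in droplets from whole lung of male C57Bl/6J mice aged 3 months. Each mouse received 100 µg of TiO2 or crocidolite asbestos, a fibre that scars the lung, through the trachea and was killed at day 14. There was 1 library labelled control and 1 labelled fibrosis, each from 1 mouse, and the labels do not say which mouse received which particle. No difference between them has a replicate check, and every 95% interval below covers counting error only.

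Goblet or mucous cells line the conducting airway and release gel-forming mucins, which trap particles. They can arise from club cells, the secretory cells of the small airway, under type 2 cytokines such as interleukin 13. In the endoplasmic reticulum the disulphide isomerase Agr2 helps mucins to fold, and the transcription factor Spdef drives the goblet programme. Muc5b and Muc5ac are the gel-forming mucins of the airway, and Clca1 is a secreted protein of goblet cells that acts on calcium-activated chloride channels. Slc26a4, or pendrin, exchanges chloride for bicarbonate and other anions at the apical membrane, and Fxyd4 is a small membrane protein that modulates the sodium pump. Alveolar type 2 (AT2) cells make surfactant and move salt and water out of the airspace.

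The genes lie at separate places in GRCm38 except the mucins. Muc5ac (ENSMUSG00000037974, chr7:141788972-141819231, plus strand) ends 19838 bases before Muc5b (ENSMUSG00000066108, chr7:141839070-141873084, plus strand) starts. Slc26a4 (ENSMUSG00000020651, chr12:31519827-31559969) and Fxyd4 (ENSMUSG00000004988, chr6:117933559-117937692) are on the minus strand. Clca1 (ENSMUSG00000028255, chr3:145003817-145032776) and Spdef (ENSMUSG00000024215, chr17:27714352-27728955) are also on the minus strand. Agr2 (ENSMUSG00000020581, chr12:35992907-36004087) is on the plus strand. All are protein-coding in GENCODE M21. Fxyd4 overlaps Gm25535 on the same strand, so its counts could include reads from that gene.

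Upstream sequence in the RefSeq promoter table (GRCm38.p6) was matched for 4 of the 7 genes, Slc26a4, Fxyd4, Agr2 and Spdef. The windows of Slc26a4 and Agr2 are shown, as the gene of the 7 with the most UMIs in fibrosis AT2-like cells and the mucin-folding gene of club-like cells. Each is written 5′ to 3′ on the gene's strand, from 250 bases before the start site and cut short where it met an annotated exon. The Slc26a4 window is chr12:31559985-31560234 on the minus strand, and the Agr2 window chr12:35992675-35992906 on the plus strand. Capitals mark a TATAAA motif.
Slc26a4: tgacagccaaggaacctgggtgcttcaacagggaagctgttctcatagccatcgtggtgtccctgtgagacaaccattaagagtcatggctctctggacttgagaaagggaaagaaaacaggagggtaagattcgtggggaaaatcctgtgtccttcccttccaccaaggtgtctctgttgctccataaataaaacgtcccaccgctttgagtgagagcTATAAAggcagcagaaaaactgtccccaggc
Agr2: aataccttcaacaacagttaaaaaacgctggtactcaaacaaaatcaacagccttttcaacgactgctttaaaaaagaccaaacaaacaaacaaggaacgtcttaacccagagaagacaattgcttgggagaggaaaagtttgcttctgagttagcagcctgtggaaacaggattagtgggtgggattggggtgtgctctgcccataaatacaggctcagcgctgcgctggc
The search covered all 250 bases of the 4 genes, both strands, and this TATAAA was its single match. The motif starts at base -31 from the Slc26a4 start site, and 12.4% of 32851 promoter windows of the same length hold these letters. The other motifs searched were that of STAT6, TTC and GAA with any 4 bases between them (in 5.85% of windows), of FOX factors, TGTTTAC (3.17%), and a general one of ETS factors, CCGGAA (12.03%). A motif particular to Spdef was not searched.

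The levels were read in cells gated by marker genes. A cell was placed in the class whose markers exceeded the library median most, provided that no other class came close. A name with "-like" therefore rests on transcripts alone. None of the 7 genes was a marker. The gate gave 1067 control and 1816 fibrosis AT2-like cells, 55 and 85 club-like, 74 and 61 ciliated-like, 26 and 34 alveolar type 1 (AT1)-like and 881 and 349 B cell-like cells. B cell-like cells served as background, as a class not known to make mucus. Deposited cells numbered 8280 (36632591 UMIs, unique molecular identifiers, 1 for each captured RNA molecule) for control and 7173 (38090308 UMIs) for fibrosis, and 89 barcodes occurred in both. Median depth was close in AT2-like cells (5839 and 5672 UMIs) and differed in club-like cells (20448 and 14200). Levels are given as CPM, the gene's UMIs for every 1000000 UMIs of the class. In club-like cells the club-cell transcript Scgb1a1 alone was at 553068 CPM in the control and 441813 CPM in the fibrosis library. Its smaller share in the fibrosis library raises the CPM of the other genes there.

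Markers of other epithelial cells known for these genes were read as well. The gate found 0 ionocyte-like and 0 tuft-like cells in either library. The ionocyte score also used Stap1, Atp6v1c2 and P2ry14, with 1348, 1247 and 611 control UMIs in all kept cells. Such a score could miss ionocytes. Basal-like cells numbered 0 and 1, and neuroendocrine-like cells 1 and 0. Foxi1, the transcription factor that defines ionocytes, had 0 control UMIs and 1 fibrosis UMI in all kept cells. Foxi1 is known to drive Slc26a4 in kidney and inner ear. Here most Slc26a4 UMIs lay in AT2-like cells, and whether any came from ionocytes was not tested. A goblet class was not gated, because the genes that would mark it are the genes described, and the carriers are called club-like cells below.

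**Figure D1:**
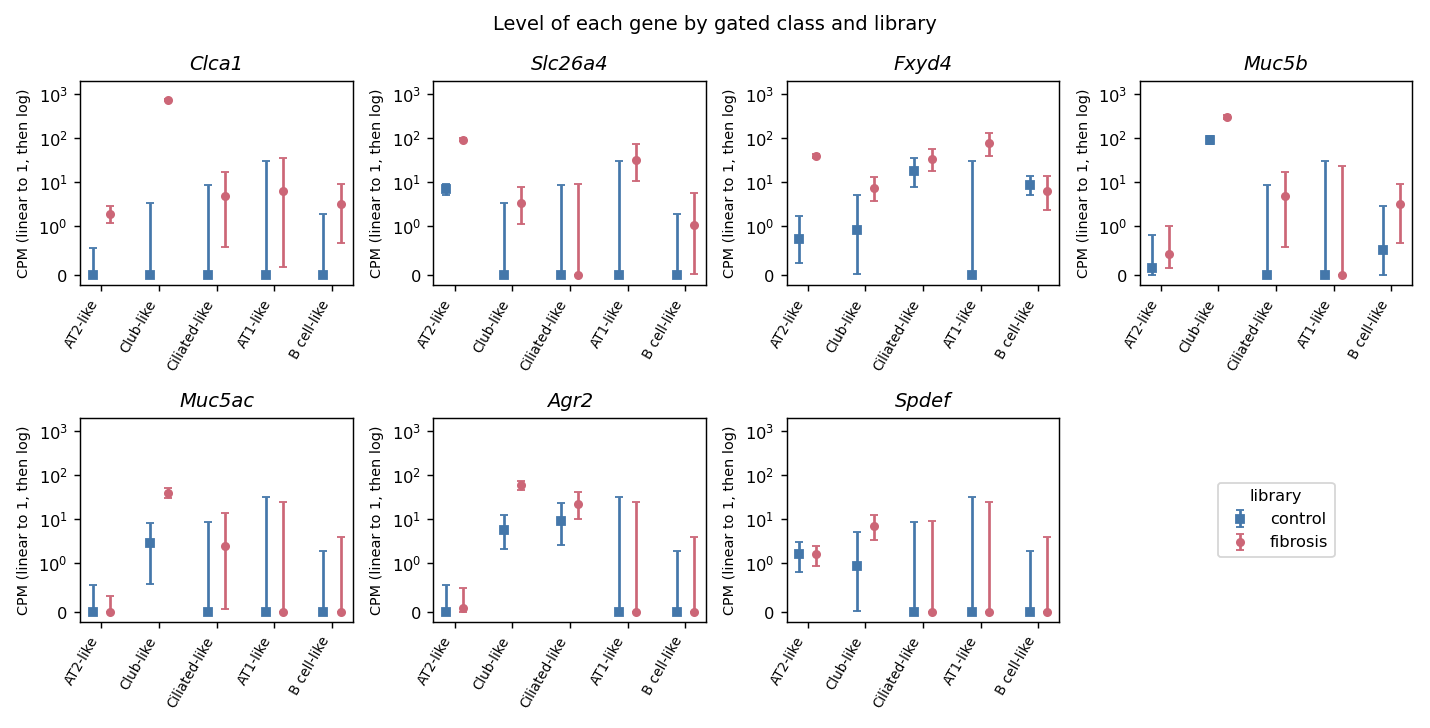
Level of each gene in CPM (linear to 1, then logarithmic) for 5 gated classes, with squares for the control library, circles for the fibrosis library and bars for exact Poisson 95% intervals. Clca1 stands at 741 CPM in fibrosis club-like cells against 0 UMIs in control ones, Slc26a4 and Fxyd4 rise in AT2-like cells, and Spdef in AT2-like cells is level.

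Slc26a4 and Fxyd4, the transport genes, were higher in AT2-like cells of the fibrosis library. Slc26a4 had 47 UMIs in control AT2-like cells, or 7.03 CPM (5.17 to 9.35), and 1066 in fibrosis ones, or 93.8 CPM (88.2 to 99.6). That is a 13.3-fold difference, 3.74 on the log2 scale with a counting interval of 3.32 to 4.19. B cell-like cells held 0 control UMIs and 1 fibrosis UMI of Slc26a4, so the AT2-like level stood far above background in both libraries.

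Slc26a4 was spread over many AT2-like cells. At least 1 UMI was found in 40 of 1067 control cells (3.75%, exact binomial interval 2.69 to 5.07) and in 452 of 1816 fibrosis cells (24.9%, 22.9 to 26.9). After thinning every cell to 1500 UMIs the shares were 1.22% and 9.53%. The most UMIs in any fibrosis cell was 19, and the 5 highest cells held 7.79% of the total. A few cells therefore did not carry the difference. AT2-like cells held 88.7% of the 53 control UMIs of the gene and 83.5% of the 1277 fibrosis UMIs.

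The rise of Slc26a4 was not limited to 1 group of AT2-like cells. When both libraries were clustered together, 8 clusters carried AT2 markers. Slc26a4 was higher in the fibrosis library in each of them, although 4 held fewer than 30 control cells. In the largest, with 575 control and 878 fibrosis cells, its level was 8.20 and 86.3 CPM. The next, with 407 and 763 cells, had 6.24 and 111 CPM. The clusters were built from all genes, Slc26a4 included.

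Fxyd4 was nearly absent from control AT2-like cells. It had 5 UMIs there, or 0.748 CPM (0.243 to 1.75), and 451 in fibrosis cells, or 39.7 CPM (36.1 to 43.5). The difference was 53.0-fold, with a log2 ratio of 5.73 (4.50 to 7.36). The cells that held it went from 5 of 1067 (0.469%) to 126 of 1816 (6.94%, 5.81 to 8.21), and after thinning from 0.188% to 2.92%. Fxyd4 was thus in fewer cells than Slc26a4, and the 5 highest cells held 26.4% of its fibrosis UMIs, with 28 UMIs in the highest.

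Fxyd4 had a low level in immune cells, where the intervals of the 2 libraries overlapped in each class given here. Control B cell-like cells held 17 UMIs, 1 in each of 17 cells (8.86 CPM, 5.16 to 14.2), and fibrosis ones held 6 (6.33 CPM, 2.32 to 13.8). Classical monocyte-like cells, 1492 and 367 in number, held 51 UMIs (6.54 CPM, 4.87 to 8.60) and 5 (3.19 CPM, 1.04 to 7.45). T cell-like cells held 17 (10.3 CPM, 5.99 to 16.5) and 9 (5.93 CPM, 2.71 to 11.3). In the control library the AT2-like level of Fxyd4 lay below that of these 3 classes, with intervals that did not overlap theirs. In the fibrosis library it lay above all 3. Other immune classes went either way on few UMIs. NK cell-like cells were at 2.99 and 8.81 CPM, alveolar macrophage-like cells at 1.23 and 2.02 CPM, and neutrophil-like cells at 4.16 CPM and 0 UMIs. AT2-like cells held 68.0% of the 663 fibrosis UMIs of Fxyd4, while of 171 control UMIs 29.8% were in classical monocyte-like cells.

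Fewer UMIs of the transport genes lay in the other epithelial classes, which had fewer cells. Ciliated-like cells had 8 control UMIs of Fxyd4 (18.4 CPM, 7.95 to 36.3) and 14 fibrosis UMIs (34.0 CPM, 18.6 to 57.0), a difference within counting error. Club-like cells had 1 and 11, a log2 ratio of 3.00 (0.22 to 8.43) that was 0.10 under a looser gate (11 and 18 UMIs). AT1-like cells had 0 and 12 (77.5 CPM, 40.0 to 135), of which 9 came from 1 cell, and without that cell 3 UMIs remained, too few for a ratio. For Slc26a4, ciliated-like cells had 0 UMIs in both libraries, club-like cells 0 and 5, and AT1-like cells 0 and 5 (32.3 CPM, 10.5 to 75.4). No more than 34 AT1-like cells were found in either library, so their values are given for completeness.

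Clca1 set the libraries apart most. The deposited tables held 3 control and 2948 fibrosis UMIs of it. All 3 control UMIs lay in cells left out for mitochondrial content, so the kept cells held 0 control UMIs and 2475 fibrosis UMIs. Among 9441 genes with 0 UMIs in kept control cells, Clca1 had the most fibrosis UMIs. The neuropeptide gene Npy followed with 229, and the trefoil factor gene Tff1, another mucous-cell product, with 153.

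In club-like cells Clca1 went from 0 UMIs in 55 cells to 1090 UMIs in 85 cells, 741 CPM (698 to 786). Against a floor of 3 counts over the control class it was 264-fold higher, and the lower limit of the exact interval was 214-fold. At least 1 UMI was held by 28 of 85 fibrosis cells (32.9%, 23.1 to 44.0), and by 20 of 85 after thinning. The 0 of 55 control cells allow, by the floor of 3 counts, a share of cells with a UMI of up to 5.45%, and by the exact binomial interval up to 6.49%. Among the 28 holders the median was 11 UMIs and the highest 195. The top cell held 17.9% of the UMIs and the top 5 held 60.2%, so the class sum rests on a small number of cells.

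In the other gated classes set side by side, Clca1 had few UMIs. AT2-like cells of the fibrosis library held 22 UMIs in 21 cells, 1.94 CPM (1.21 to 2.93). B cell-like cells held 3 UMIs (3.16 CPM, 0.652 to 9.24) and alveolar macrophage-like cells 22 (4.45 CPM, 2.79 to 6.74). The AT2-like level was not above that of B cell-like cells, so it is read as background. Ciliated-like cells held 2 UMIs and AT1-like cells 1.

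The mucin genes differed less in fold, since the control library already held some of their RNA. Muc5b, the mucin made constitutively in airway secretory cells, had 100 UMIs in control club-like cells (93.6 CPM, 76.1 to 114) and 445 in fibrosis ones (303 CPM, 275 to 332). The ratio was 3.23, or 1.69 on the log2 scale (1.38 to 2.02). It was held by 11 of 55 control cells (20.0%, 10.4 to 33.0) and 42 of 85 fibrosis cells (49.4%, 38.4 to 60.5), whose intervals did not overlap. Control holders had a median of 9 UMIs and fibrosis holders 4, so the fibrosis library had more Muc5b cells but not more UMIs in the typical one, whose depth was also lower. The gene was the single one of the 7 with over 10 control UMIs in club-like cells.

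Muc5ac, the mucin induced in goblet cells, had 3 control UMIs in 2 club-like cells (2.81 CPM, 0.579 to 8.20) and 57 fibrosis UMIs in 20 (38.8 CPM, 29.4 to 50.2). The ratio was 13.8, with a counting interval of 4.49 to 68.9. AT2-like and B cell-like cells held 0 UMIs in both libraries. No class outside the club-like one held more than 1 UMI of Muc5ac among those set side by side.

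Agr2 went from 6 UMIs in 4 club-like cells (5.61 CPM, 2.06 to 12.2) to 86 in 19 (58.5 CPM, 46.8 to 72.2). The ratio was 10.4 (4.59 to 29.2). The 5 highest cells held 73.3% of the fibrosis UMIs. Ciliated-like cells also held the gene, at 4 control UMIs (9.21 CPM, 2.51 to 23.6) and 9 fibrosis UMIs (21.8 CPM, 9.99 to 41.5). Their ratio of 2.37 had an interval of 0.662 to 10.5, which includes no difference.

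Spdef was scarce everywhere. In AT2-like cells it had 11 control UMIs (1.65 CPM, 0.822 to 2.94) and 18 fibrosis UMIs (1.58 CPM, 0.939 to 2.50), each in a cell of its own. The log2 ratio was -0.06 (-1.22 to 1.17), within counting error. In club-like cells it went from 1 UMI to 10, in 7 cells, a ratio of 7.27 whose interval ran from 1.03 to 315. B cell-like cells held 0 Spdef UMIs in both libraries.

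Counting the 7 genes by class, a gene was called where the libraries differed at least 2-fold with at least 10 UMIs over both. In club-like cells 6 of the 6 genes with enough UMIs were called higher in the fibrosis library, against 14.7% of 9229 genes. After thinning 3 were called, Clca1, Muc5b and Agr2, and fewer than 10 UMIs were left of each of the others. In AT2-like cells 3 of 4 were called higher, Slc26a4, Fxyd4 and Clca1, against 5.27% of 12897 genes, and Clca1 there was at background. In ciliated-like cells 1 of 2 was called higher, against 6.27%, and in AT1-like cells 1 of 1, against 9.49%. In B cell-like cells 0 of 1 was called higher, against 6.18%. None was called lower in any of the 5 classes, where 1.87% (AT2-like), 2.54% (club-like), 5.76% (ciliated-like), 7.58% (AT1-like) and 4.75% (B cell-like) of genes were. The genes were chosen on this contrast, so nothing is read from these shares.

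**Figure D2:**
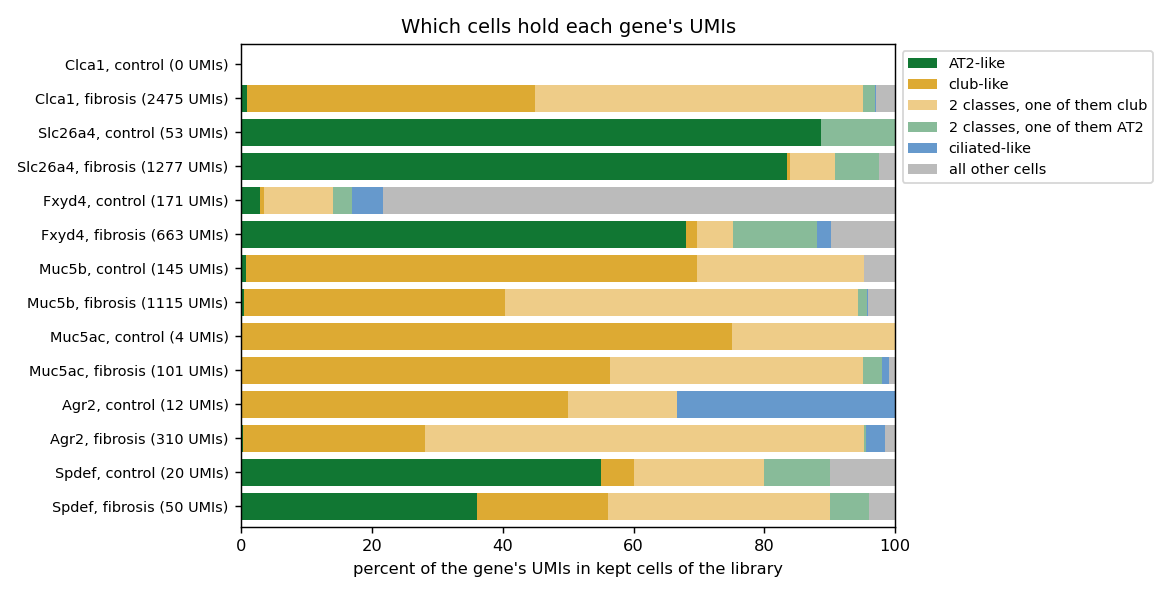
Percent of each gene's UMIs in kept cells that lay in AT2-like, club-like and ciliated-like cells, in cells with the markers of 2 classes, and in all other cells, for each library. Most Slc26a4 lies in AT2-like cells in both libraries. Most Fxyd4 lies in all other cells in the control library and in AT2-like ones in the fibrosis library. About as much Clca1 lies in 2-class cells with club markers (50.2%) as in club-like cells (44.0%).

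Much of the mucous-gene RNA lay in cells that the gate had set aside because they carried the markers of 2 classes. Cells with 2 classes made up 10.6% of kept control cells and 12.6% of kept fibrosis cells. Those with club as a class numbered 53 and 108, with median depths of 19588 and 19106.5 UMIs. They held 1242 fibrosis UMIs of Clca1 (50.2% of the total), 602 of Muc5b (54.0%), 39 of Muc5ac (38.6%) and 208 of Agr2 (67.1%). One such cell held 129 of the Agr2 UMIs. Whether these droplets held 1 cell or 2 was not tested.

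Clca1, Muc5b and Agr2 were higher in the fibrosis library in these cells too. Clca1 went from 0 UMIs to 516 CPM (488 to 545), Muc5b from 31.2 to 250 CPM and Agr2 from 1.69 to 86.4 CPM. Fxyd4 was at 15.2 CPM (9.01 to 24.0) and 15.0 CPM (10.5 to 20.7). In the clustering, 2 clusters with club markers together held 2369 of the 2475 Clca1 UMIs. How many of the 2-class cells lay in them was not counted. The first cluster had 46 control and 99 fibrosis cells and a Clca1 level of 0 and 678 CPM. The second had 59 and 83 cells and 0 and 566 CPM. Muc5b was higher in both, going from 108 to 279 CPM in the first and from 40.9 to 252 in the second. Slc26a4 went from 0 UMIs to 44.6 CPM in the first and from 0.611 to 20.4 CPM in the second, and Fxyd4 from 0 UMIs to 19.7 CPM and from 12.8 to 36.5 CPM.

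The genes could be followed within single cells. In fibrosis AT2-like cells, 126 cells held Fxyd4 and 452 held Slc26a4, and 94 held both. These were 74.6% of the Fxyd4 holders and 20.8% of the Slc26a4 holders, where 24.9% of all AT2-like cells held Slc26a4. After thinning, 31 of the 53 cells with Fxyd4 also held Slc26a4. In the control library 1 of 5 Fxyd4 holders did.

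In club-like cells the mucous genes lay in the same cells. Of the 28 fibrosis cells with Clca1, 24 held Muc5b (85.7%), where 49.4% of all club-like cells did. Agr2 was in 14 of the 28 and Muc5ac in 11. Muc5b was held by 18 of the 19 cells with Agr2 and by 16 of the 20 with Muc5ac. After thinning, 16 of 20 Clca1 cells held Muc5b. Spdef was in 7 cells, 6 of which held Clca1.

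The number of the 7 genes held by a cell differed between libraries. Of 85 fibrosis club-like cells 53 held at least 1, 35 at least 2, 22 at least 3 and 13 at least 4, with a maximum of 6. Of 55 control club-like cells 15 held at least 1, 4 held 2 and 0 held 3, although control cells were deeper. In AT2-like cells 520 fibrosis cells held at least 1 and 102 at least 2, against 56 and 1 in the control library. Of 1816 fibrosis AT2-like cells 0 held Muc5ac and 1 held Agr2, while of 85 fibrosis club-like cells 7 held Fxyd4 and 5 held Slc26a4.

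**Figure D3:**
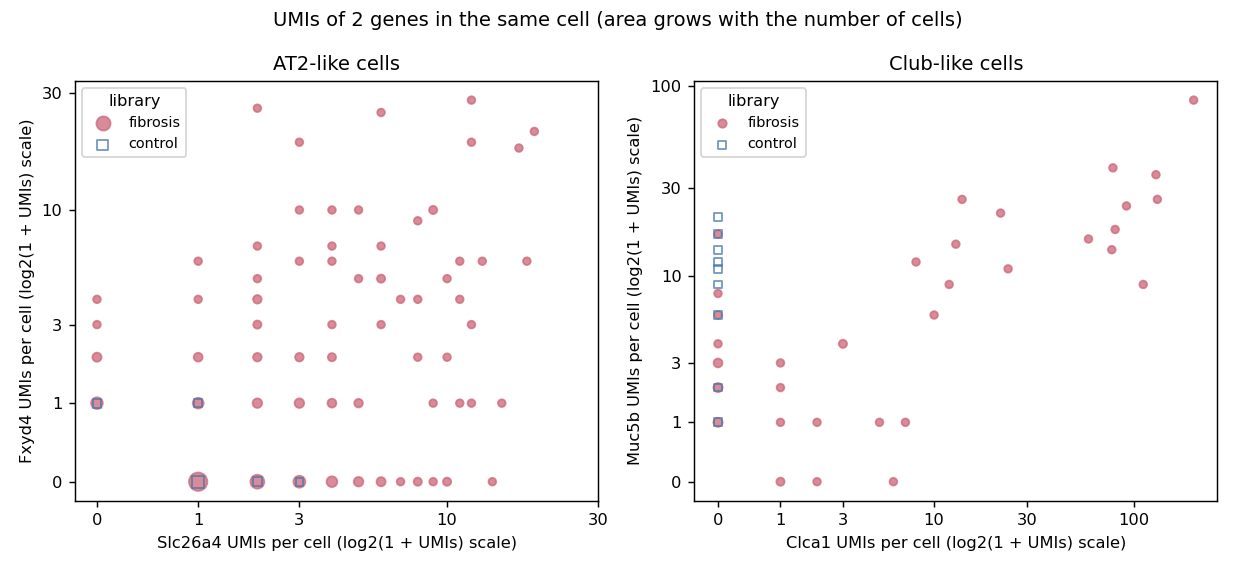
UMIs of a pair of genes in the same cell on log2(1 + UMIs) axes, for AT2-like cells (Slc26a4 and Fxyd4) and club-like cells (Clca1 and Muc5b). Filled circles are fibrosis cells and open squares control cells, symbols grow with the number of cells at a point, and cells without either gene are left out. Fibrosis AT2-like cells fill the area where both genes are present, and the club-like cells with the most Clca1 (up to 195 UMIs) also hold Muc5b, while control cells lie on the Muc5b axis.

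What else the carriers held was read from genes picked after their values had been seen, as a description. Fibrosis AT2-like cells with Fxyd4 had a median depth of 7310.5 UMIs, against 5551 in those without it. Slc26a4 was at 432 CPM in the holders and 61.1 CPM in the others. Retnla, a secreted protein induced by interleukin 4 and 13, was at 20761 CPM (20480 to 21045) and 966 CPM (948 to 986). Il33, an alarmin made by AT2 cells, was at 857 and 439 CPM.

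Other salt-transport genes were read in the same cells. Scnn1a, a subunit of the epithelial sodium channel, was at 95.8 CPM in Fxyd4 holders and 95.8 CPM in the others. The anion channel gene Cftr was at 16.0 CPM (9.13 to 25.9) and 23.7 CPM (20.9 to 26.9). The subunit gene Scnn1b was at 19.0 CPM (11.4 to 29.6) and 12.5 CPM (10.5 to 14.9), and Fxyd3 at 5.99 and 1.74 CPM. The intervals of each of these genes overlapped. Atp1b1, a subunit of the sodium pump, was at 1021 CPM (959 to 1085) and 853 CPM (836 to 871), which did not. Surfactant gene Sftpc was at 148809 and 170320 CPM, and the club-cell transcript Scgb1a1 at 8761 and 3793 CPM. The part of other cells' RNA in these values was not tested.

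Fibrosis club-like cells with Clca1 held more of several mucous-cell genes. Muc5b was at 852 CPM (768 to 941) in the holders and 60.7 CPM (46.6 to 77.8) in the others. Agr2 was at 160 and 13.7 CPM, Muc5ac at 105 and 9.79 CPM and Spdef at 20.0 and 0.979 CPM. Tff2, a trefoil peptide packed with mucins, was at 1196 and 54.8 CPM. Fcgbp, a mucus protein that binds IgG, was at 169 and 0.979 CPM. Foxa3, a transcription factor of goblet cells, had 2 and 3 UMIs, and Ern2, a stress sensor of mucous cells, 2 and 0, too few to compare.

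Bpifb1, Reg3g and Pigr, defence genes of the airway lining, were also higher in the holders. Bpifb1, a secreted lipid-binding protein, was at 918 and 23.5 CPM, and Reg3g, an antibacterial lectin, at 1356 and 28.4 CPM. Pigr, the receptor that carries IgA across the epithelium, was at 625 and 171 CPM. Club-cell transcripts did not move together. Lower in the holders were Scgb1a1, at 344120 and 484847 CPM, and the P450 gene Cyp2f2, at 3213 and 5775 CPM. Scgb3a2 was higher in them, at 11642 CPM (11329 to 11962) and 7526 CPM (7359 to 7696). The holders were the shallower cells, at a median of 9518.5 UMIs against 16830. Creb3l1, a transcription factor of secretory cells, was at 24.5 CPM in both sets.

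**Figure D4:**
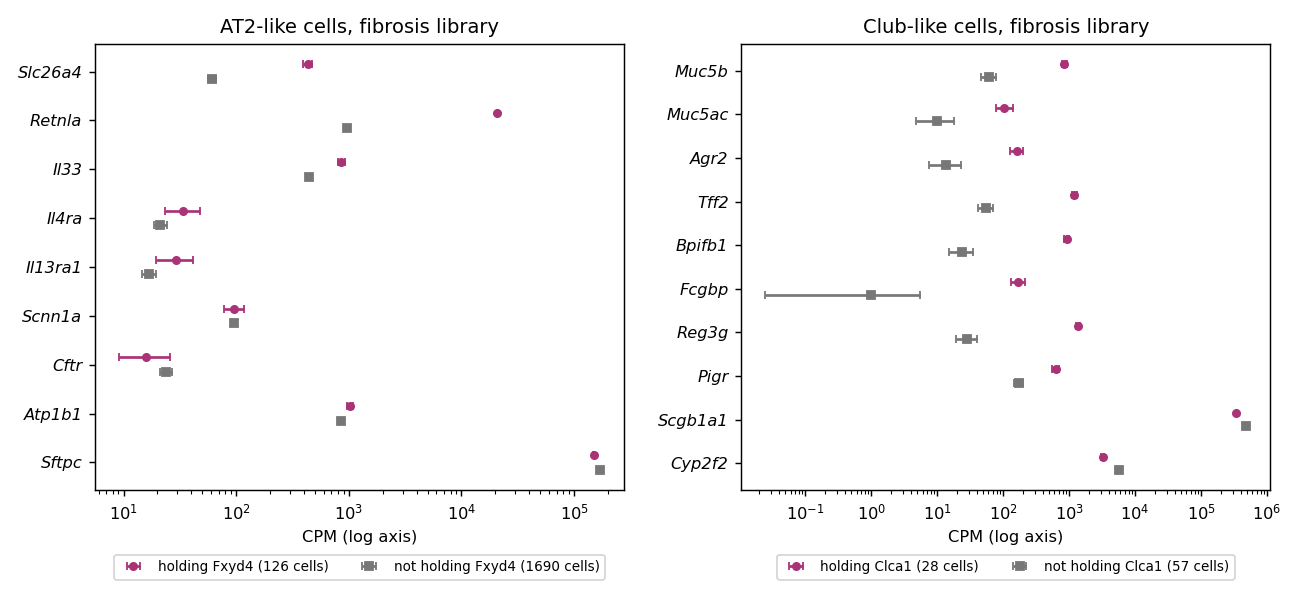
Level in CPM (log axis) of 9 genes in fibrosis AT2-like cells with and without Fxyd4, and of 10 genes in fibrosis club-like cells with and without Clca1, with exact Poisson 95% intervals. The intervals of Slc26a4, Retnla, Il33, Atp1b1 and Sftpc separate the AT2-like sets, while Scnn1a is at 95.8 CPM in both. Every mucous gene drawn separates the club-like sets, but the genes were picked after their values were seen. Creb3l1, at 24.5 CPM in both sets, is not drawn.

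The other genes of these pathways were read from lists taken as a whole, excluding the 7 genes. In club-like cells 7 of the 22 mucous-programme genes with enough UMIs were called higher in the fibrosis library and 1 lower, with a median log2 ratio of 0.59. Over all genes of the class 14.7% were called higher and 2.54% lower, and the median was 0.29. The smaller Scgb1a1 share in the fibrosis library adds to all club-like ratios and medians. Scaling by the median gene ratio lowered club-like log2 ratios by 0.22. Fcgbp went from 1 UMI to 77 (0.936 to 52.4 CPM) and Ltf, which encodes the iron-binding protein lactoferrin, from 16 to 306 (15.0 to 208 CPM). Bpifa1, an airway-surface protein that limits sodium absorption, was the one called lower, from 626 CPM (579 to 675) to 233 CPM (209 to 259). Foxa1, a transcription factor of airway epithelium, was at 53.3 and 48.3 CPM.

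In AT2-like cells 5 of 21 mucous-programme genes were called higher and 1 lower, with a median of 0.23, beside 5.27% higher, 1.87% lower and a median of 0.05 over all genes. With at least 50 UMIs required, 1 was called higher and 0 lower. The 5 were Pigr, Bpifb1, Ltf, Reg3g and Tff2, and the one lower was Bpifa1, named because they were called. Bpifb1, Ltf, Reg3g and Tff2 had 20, 9, 24 and 17 fibrosis UMIs there, beside 22 of Clca1, which is read as background. In fibrosis club-like cells they stood at 297, 208, 434 and 404 CPM. The log2 interval of Ltf in AT2-like cells (-0.87 to 4.65) includes no difference. The part of other cells' RNA in these AT2-like counts was not tested. Pigr rose from 35 UMIs (5.24 CPM) to 198 (17.4 CPM). Muc4, a membrane-bound mucin, was at 9.13 and 15.5 CPM, a log2 ratio of 0.76 (0.33 to 1.21). Foxa1 was at 50.6 and 43.1 CPM and Creb3l1 at 20.2 and 17.7 CPM. In ciliated-like cells 3 of 13 were called higher and 0 lower, with a median of 0.53, beside 6.27% higher, 5.76% lower and a median of -0.01 over all genes. Among them Foxa1 went from 27 to 57 UMIs and Reg3g from 0 to 81 UMIs. Agr3, a relative of Agr2 found in ciliated cells, was at 338 and 265 CPM, and Xbp1, a factor of the secretory stress response, at 89.8 and 80.1 CPM.

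Most ion and water transport genes did not reach a 2-fold difference where Slc26a4 did. In AT2-like cells 3 of 29 were called higher and 0 lower, beside 5.27% and 1.87% of all genes, with a median log2 ratio of 0.14 beside 0.05. They were Ano1, Aqp3 and Kcnn4. The calcium-activated chloride channel gene Ano1 went from 38 UMIs (5.69 CPM) to 143 (12.6 CPM), and the sodium channel subunit gene Scnn1b from 6.88 to 13.1 CPM, a log2 ratio of 0.93 (0.44 to 1.44). Prss8, a protease that activates the sodium channel, was at 58.9 and 53.4 CPM.

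In club-like cells 3 of 25 transport genes were called higher, Ano1, Kcne3 and Tmprss4, and 0 lower, with a median of 0.39. That is beside 14.7% higher, 2.54% lower and a median of 0.29 over all genes. Kcne3 went from 3 UMIs to 13 and Tmprss4 from 6 to 20. Their log2 intervals (-0.21 to 4.11 and -0.09 to 2.88) include no difference. Ano1 went from 17 UMIs (15.9 CPM, 9.27 to 25.5) to 63 (42.8 CPM, 32.9 to 54.8). Clcn3, a chloride-proton exchanger of vesicles, was at 21.5 and 40.1 CPM, Scnn1g at 43.0 and 36.7 CPM, and the water channel gene Aqp4 at 32.8 and 22.4 CPM. In ciliated-like cells 2 of 16 were called higher, Atp1b1 and Tmprss4, and 0 lower, with a median of 0.23, beside 6.27%, 5.76% and -0.01. The sodium pump gene Atp1b1 there went from 203 CPM (162 to 250) to 405 CPM (346 to 472). The anion exchanger gene Slc4a2 was at 46.0 and 80.1 CPM, the kinase gene Wnk1 at 285 and 248 CPM and the protease gene St14 at 78.3 and 53.4 CPM.

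Of 4 other FXYD genes tested in AT2-like cells, 1 was called higher and 1 lower, beside 5.27% and 1.87% of all genes, and the median log2 ratio was -0.24 beside 0.05. Fxyd3 was the one called higher, from 7 UMIs (1.05 CPM) to 24 (2.11 CPM), a log2 ratio of 1.01 (-0.25 to 2.47) that includes no difference. Fxyd2, which regulates the sodium pump of the kidney, went from 38 UMIs (5.69 CPM, 4.02 to 7.80) to 25 (2.20 CPM, 1.42 to 3.25). Fxyd5 was at 47.3 and 42.0 CPM and Fxyd6 at 7.63 and 6.16 CPM. In club-like cells 1 of 2 was called higher, beside 14.7% of all genes. This was Fxyd3, from 59.9 CPM (46.1 to 76.5) to 151 CPM (132 to 172), while Fxyd5 was at 22.5 and 27.2 CPM. In ciliated-like cells 0 of 2 were called. Of 6 other CLCA genes in the files, 0 had enough UMIs in any epithelial class, so Clca1 was the sole member of its family that could be followed.

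Genes of interleukin 4 and 13 signalling were read because these cytokines are known to induce the mucous genes. In AT2-like cells 3 of 12 were called higher, Il4ra, Retnla and Socs1, and 0 lower, beside 5.27% and 1.87% of all genes. The median was 0.53 beside 0.05. The receptor gene Il4ra went from 10.8 CPM (8.43 to 13.6) to 22.3 CPM (19.7 to 25.3). Stat6, the transcription factor downstream of it, was at 27.7 and 29.6 CPM, and the kinase gene Tyk2 at 8.68 and 7.39 CPM. Retnla went from 200 UMIs (29.9 CPM) to 30820 (2711 CPM). In B cell-like cells, which are not known to make it, Retnla went from 5.21 CPM to 185 CPM, and the part of free RNA in the AT2-like level was not tested.

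In club-like cells 3 of 9 of these signalling genes were called higher, Il33, Il4ra and Retnla, and 0 lower, beside 14.7% and 2.54% of all genes. Il33 had 1 control UMI and 12 fibrosis UMIs (8.16 CPM, 4.22 to 14.3). Its interval overlapped that of fibrosis B cell-like cells (5.27 CPM, 1.71 to 12.3), so it is read as background. The median of the signalling genes was 0.92 beside 0.29, and with at least 50 UMIs 1 was called higher. Retnla was at 529 CPM in control cells and at 17470 CPM in fibrosis cells. Il13ra1 was at 37.4 and 30.6 CPM, Jak1 at 21.5 and 35.4 CPM and Stat6 at 21.5 and 28.6 CPM. In ciliated-like cells 1 of 7 was called higher, Retnla, and 1 lower, Tyk2, beside 6.27% and 5.76% of all genes. Tyk2 went from 10 UMIs to 4, a log2 ratio of -1.25 (-3.37 to 0.55) that includes no difference. Retnla went from 4 UMIs to 94 (228 CPM, 184 to 279), and its interval overlapped that of B cell-like cells (185 CPM, 158 to 214), so it is read as background. Jak1 there was at 46.0 and 87.4 CPM, Jak2 at 53.0 and 72.8 CPM and Stat6 at 55.3 and 80.1 CPM.

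The genes most alike in pattern were ranked by Pearson r of log2(CPM + 1) over 13 classes in both libraries, 26 points that share libraries and depth. Clca1 was most like Chil4 (r = 0.88), Scin (0.80) and Muc5ac (0.76). Slc26a4 was most like Fgg (0.93), Paqr6 (0.89) and Daam2 (0.88). Fxyd4 was most like Gm42722 (0.75), Zfp956 (0.75) and Ift27 (0.70). Muc5b was most like Scgb3a1 (0.95), Chad (0.93) and Tff2 (0.92). Muc5ac was most like Scin (0.90), Muc5b (0.88) and Ly6g6c (0.87). Agr2 was most like Calml3, Pcsk6 and Atp2c2 (0.91 each). Spdef had too few UMIs to be ranked.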

How the data were processed

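Single-cell RNA was measured in 2 mouse lung libraries with 10x Genomics 3′ V2 chemistry. The deposited values are raw UMI counts, per the labels' protocols and the values. Cell Ranger 1.3, bcl2fastq and the mm10 build are named in the submitters' processing notes, and the annotation used for counting is not given in the sources used here. Positions came from GENCODE M21.

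The 7 genes, the marker lists and the gene lists were chosen with earlier results of these data known. Cells with fewer than 200 genes (1 control cell) or more than 10% mitochondrial UMIs (254 control and 228 fibrosis cells) were left out, leaving 8025 and 6945. For each cell and each of 26 classes, the mean log2(1 + UMIs per 10000) over the markers was taken minus the library median. The class with the largest excess was assigned if that excess was at least 1, at least 3 markers were detected, and the runner-up was at most 0.5 of it. Cells of 2 classes (854 and 875) and of no class (472 and 721) were set aside, and no doublet caller was used in the main analysis. Libraries were compared by CPM of summed UMIs with exact Poisson intervals, by the ratio with an exact conditional binomial interval, and by Clopper-Pearson shares, all at 95%. A count of 0 was given a floor of 3 counts. Shares were repeated with cells thinned to 1500 UMIs, which left out 1 AT2-like and 1 club-like control cell. With 1 library a group no test was made. The intervals were also run on simulated Poisson sums. These follow the model that the intervals assume, so they cannot show how the intervals fare where few cells hold the RNA.

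Named list genes were the 2 highest and 2 lowest ratios of each list and class with at least 50 UMIs, and for each of the 7 genes with at least 100 UMIs the 3 most alike in pattern. Some genes that this rule names are not reported here. Alternatives were another gate limit or excess, Leiden clusters, scrublet scores, no mitochondrial filter, a depth floor, thinning, shared barcodes left out, other scalings, subtraction of the B cell-like level and other count minimums. After the data were seen, totals without Scgb1a1 and Sftpc, cells led by the class, and the top cell left out were added. Python 3.11.15, scipy 1.17.1 and scanpy 1.11.5 were used.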

Additional observations from a re-analysis of the deposited data

Results flagged for a closer look

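Cells that the comparisons did not use carried the same genes. In cells with the markers of 2 classes, one of them club, the fibrosis library had 516 CPM of Clca1, 250 CPM of Muc5b, 86.4 CPM of Agr2, 16.2 CPM of Muc5ac and 37.0 CPM of Slc26a4. The control library had 0 UMIs of Clca1 and Slc26a4 there, and 31.2 CPM of Muc5b, 1.69 CPM of Agr2 and 0.844 CPM of Muc5ac. Of the 89 fibrosis UMIs of Slc26a4 in these cells, 42 came from 1 cell.

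In cells left out for mitochondrial content, 228 in the fibrosis and 254 in the control library, Clca1 stood at 545 CPM and 3.25 CPM. Muc5b stood at 151 and 22.7 CPM, Slc26a4 at 53.0 and 4.33 CPM, Muc5ac at 24.2 and 1.08 CPM and Fxyd4 at 21.9 and 5.41 CPM. For each of these 5 genes the fibrosis interval lay above the control one. Agr2 stood at 6.91 and 4.33 CPM, with intervals that overlapped, and Spdef at 0 UMIs in the fibrosis library and 1 in the control. Of the 473 fibrosis UMIs of Clca1 there, 204 came from 1 cell.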

How the results depend on the processing

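No paired analysis was possible because the groups share 1 replicate number and hold 1 library each. Of 172 alternative values of the log2 ratios, 165 stayed within the counting interval (taken with the floor of 3 counts where the control had 0) and 7 moved beyond it. Among these values no ratio of at least 2-fold changed direction. Sums at or under the floor, and bounds against 0 UMIs that pointed the other way, got no value, so some reversals could not be counted. Agr2 in ciliated-like cells was such a case, with 3 control and 0 fibrosis UMIs after thinning. Slc26a4 in AT2-like cells ranged from 3.42 to 3.81 and Fxyd4 from 4.79 to 6.00. Thinning gave 4.63 for Clca1, 2.52 for Muc5b and 1.35 for Agr2 in club-like cells, 3 club-like genes called higher, and share differences of 3.36 points for Agr2, 2.85 for Muc5ac, 2.73 for Fxyd4 and 8.31 for Slc26a4. Muc5b was 1.37 without Scgb1a1 and Sftpc in the total and 2.13 with Leiden clusters. Median-ratio scaling shifted club-like ratios by 0.22 and called 0 FXYD genes higher in AT2-like cells. Subtracting the B cell-like level left 1 gene called higher in AT2-like cells and 2 in ciliated-like cells. In AT2-like cells, Fxyd4 of the control library and Clca1 of the fibrosis library then had no positive level. Without the mitochondrial filter 1 gene, Muc5b, was called lower in AT2-like cells (8 and 6 UMIs). Ciliated-like genes called higher were 0 at a runner-up limit of 0.33, 3 at 0.75, and 0 after thinning or with at least 50 UMIs. AT1-like ones were 0 with Leiden clusters, thinning or 50 UMIs. Fxyd4 in club-like cells was 0.10 at a limit of 0.75 and 0.05 with cells led by the class added, from 3.00. With at least 50 UMIs, mucous genes called in AT2-like cells were 1 higher and 0 lower, transport genes higher 1 in AT2-like and 1 in club-like cells, FXYD genes higher in AT2-like cells 0, and signalling genes in club-like cells 1. In 10 cases no value was given. Either both sums were at or under the floor, the bound fixed no direction, or no positive level was left after subtracting the B cell-like level. After thinning, Spdef and Fxyd4 had 0 UMIs left in club-like cells of both libraries, and club-like values rest on 55 and 85 cells.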
